A study of Homo sapiens with 2 samples.

Results

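The DDX and DHX genes encode RNA helicases, enzymes that use ATP to open RNA duplexes or to strip proteins from RNA. They were taken as all genes whose symbol in the deposited tables was DDX or DHX followed by a number and at most 1 letter. This gave 50 of the 11619 listed genes, of which 35 were DDX and 15 were DHX genes. Among them, DDX12P is annotated as a pseudogene, and DDX26B, now named INTS6L, encodes a protein related to an Integrator subunit and no helicase. DDX58 is the older symbol of RIGI. Expression was compared in NB4, a human cell line from acute promyelocytic leukemia (APL) that carries the PML/RARα fusion, between cells given a lentiviral shRNA against the long non-coding RNA CRNDE (sh-CRNDE) and cells given a non-targeting shRNA (sh-Control). Both were sampled on day 3 of infection, and by the study's methods both carried the same pLVX-shRNA2 vector, with the fluorescent protein ZsGreen1 as the marker for selecting stable lines. The CRNDE shRNA used in the sequenced cells, one of a pair designed for the study, was not named. RNA was sequenced in 1 library per group. Differences between the groups thus have no replicates behind them and carry no p-value.

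A DEAD-box or DEAH-box helicase is built from a pair of RecA-like domains with a set of short conserved motifs, and the families take their names from the amino acids of motif II, which binds the magnesium of the bound ATP. In the DEAD-box enzymes these are Asp-Glu-Ala-Asp, and in the DEAH-box enzymes the last of them is His. DEAD-box proteins generally prise short duplexes apart locally, whereas DEAH-box proteins move along one RNA strand. Between them they serve ribosome assembly in the nucleolus, many remodeling steps of the spliceosome, and mRNA export, translation and decay. They also serve mitochondrial RNA handling and the sensing of viral RNA. In myeloid cells the family is known above all for DDX41, which is recurrently mutated in myeloid neoplasms.

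The coding sequence of motif II shows what the names of these genes stand for, so that of the genes on which the results turn is given here. Each line is read 5′ to 3′ on the coding strand from the canonical transcript (GENCODE 44, GRCh38), lies within 1 coding exon, and has the 4 codons of motif II in capitals.
DDX50 (chr10:68913492-68913521, plus strand, exon 6): gttgtgcttGATGAAGTGGATcagatgtta
DDX21 (chr10:68967119-68967148, plus strand, exon 6): gttgtcctgGATGAAGTGGACcagatgttg
DDX5 (chr17:64503236-64503265, minus strand, exon 7): cttgtccttGATGAAGCAGATagaatgctt
DDX17 (chr22:38494934-38494963, minus strand, exon 7): cttgtattgGACGAAGCTGACagaatgctt
DDX28 (chr16:68022327-68022356, minus strand, exon 1): ttggtgttgGATGAGGCAGACacactgctg
DDX52 (chr17:37626059-37626088, minus strand, exon 8): cttgtagtaGACGAATCAGATaaactgttt
DHX33 (chr17:5462397-5462426, minus strand, exon 3): gtcattttgGATGAAGCTCACgaacggact
DHX15 (chr4:24556314-24556343, minus strand, exon 4): ataattcttGATGAGGCTCATgagaggaca
DDX11 (chr12:31091797-31091826, plus strand, exon 10): gtgatcatcGACGAGGCGCACaacctgatc
DDX50 and DDX21 have valine in the third place and DDX52 has serine, so the letters of the name are those of the family rather than of every protein. Of the 35 DDX genes, 25 encoded DEAD at this place, 7 encoded a variant and DDX11 encoded DEAH, while DDX12P has no annotated coding sequence and DDX26B has no motif II. Of the 15 DHX genes, 8 encoded DEAH and 6 encoded a variant such as DEVH, and in DHX32 more than 1 stretch matched, so none was assigned.

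All values are FPKM, fragments counted per kilobase of transcript and relative to all mapped fragments, as the authors deposited them. The change of a gene is log2(FPKM + 1) in sh-CRNDE minus log2(FPKM + 1) in sh-Control, a scale that understates the change of genes at low levels, and a gene is said to have risen or fallen where this change passed 1.5-fold (0.585 on the log2 scale). Where a pair of levels is given without naming the libraries, the control library comes first. FPKM hold no read counts, the depth of the libraries is unknown, and no interval of counting error can be given. In these bulk samples, fewer cells of a kind and less RNA per cell cannot be told apart. The targeted gene CRNDE was at 5.92 FPKM in the control library and 1.85 FPKM in the sh-CRNDE library, a change of -1.28. Of 7 genes that mark early granulocytic cells, 6 were listed and ELANE was not. They lay between 1.64 and 1135 FPKM in the control library and between 1.13 and 737.6 FPKM in the sh-CRNDE library, and 4 of them, MPO, PRTN3, CTSG and AZU1, fell, against 8.83% of all genes. With the adjustment for GC content described further on, the change of MPO was -0.43 and did not pass. Their part in the differences between helicase genes was not tested. Of 17 markers of T cells, B cells, red cells, platelets, epithelium and fibroblasts, 13 were not listed, among them CD3E, MS4A1, HBB, PF4 and COL1A1, and the 4 listed reached at most 4.82 FPKM.

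Few DDX and DHX genes differed by 1.5-fold between the libraries. DDX50 rose, DHX33 fell, DDX28 passed the threshold as lower by being listed at 0 in sh-CRNDE, and the other 47 did not pass the threshold, which makes 3 of 50 genes or 6% past it in either direction. Of all 11619 listed genes, 17.2% were past 1.5-fold, 8.38% as higher and 8.83% as lower in sh-CRNDE. Levels matter for such a share, and among protein-coding genes whose mean was 5 FPKM or more it was 16.7% (8.07% higher, 8.6% lower), against 2 of the 40 helicase genes at that level, or 5% (1 higher, 1 lower). The median change of the 50 genes was 0.03, with 25 above 0 and 25 below, and that of all genes was -0.01. The middle of the distribution, from the 25th to the 75th percentile, ran from -0.15 to 0.27 for the helicase genes and from -0.26 to 0.23 for all genes. Changes within 0.1 of 0 were seen in 13 of the 50 genes, changes above 0.3 in 11 and changes below -0.3 in 9. With 1 library per group, how far a gene of this level moves between cultures of 1 group is not known.

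The order of the helicase genes by level was much the same in both libraries. Over the 49 genes above 0 in both, the levels had a Spearman rho of 0.96, a description across genes that share the same 2 libraries and are not independent replicates. DDX21 was the highest in both, at 202.2 FPKM in the control library and 259.9 FPKM in the sh-CRNDE library, followed by DHX9, DDX5, DDX1 and DHX15 in one order or another. These 5 genes held 42.3% of the summed FPKM of the 50 genes in sh-Control and 47.6% in sh-CRNDE. The sum itself was 996.9 FPKM in the control library and 1115 FPKM in the sh-CRNDE library, a ratio of 1.12, and DDX21 alone made up 57.7 of the 117.7 FPKM between them. The median level of the 50 genes was 12.01 FPKM in the control library and 10.9 FPKM in the sh-CRNDE library, so the sum and the median lay in opposite directions. As a share of all FPKM the 50 genes held 0.706% in sh-Control and 0.654% in sh-CRNDE, where MT-RNR2 alone was at 27614 FPKM, and without mitochondrial, ribosomal and small RNA genes 0.709% and 0.787%, so the direction of their summed level depends on the scaling. In both libraries 24 genes were at 10 FPKM or more and 8 were under 5 FPKM. The plot of levels by role shows the narrow gap between the libraries for most genes.

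**Figure D1:**
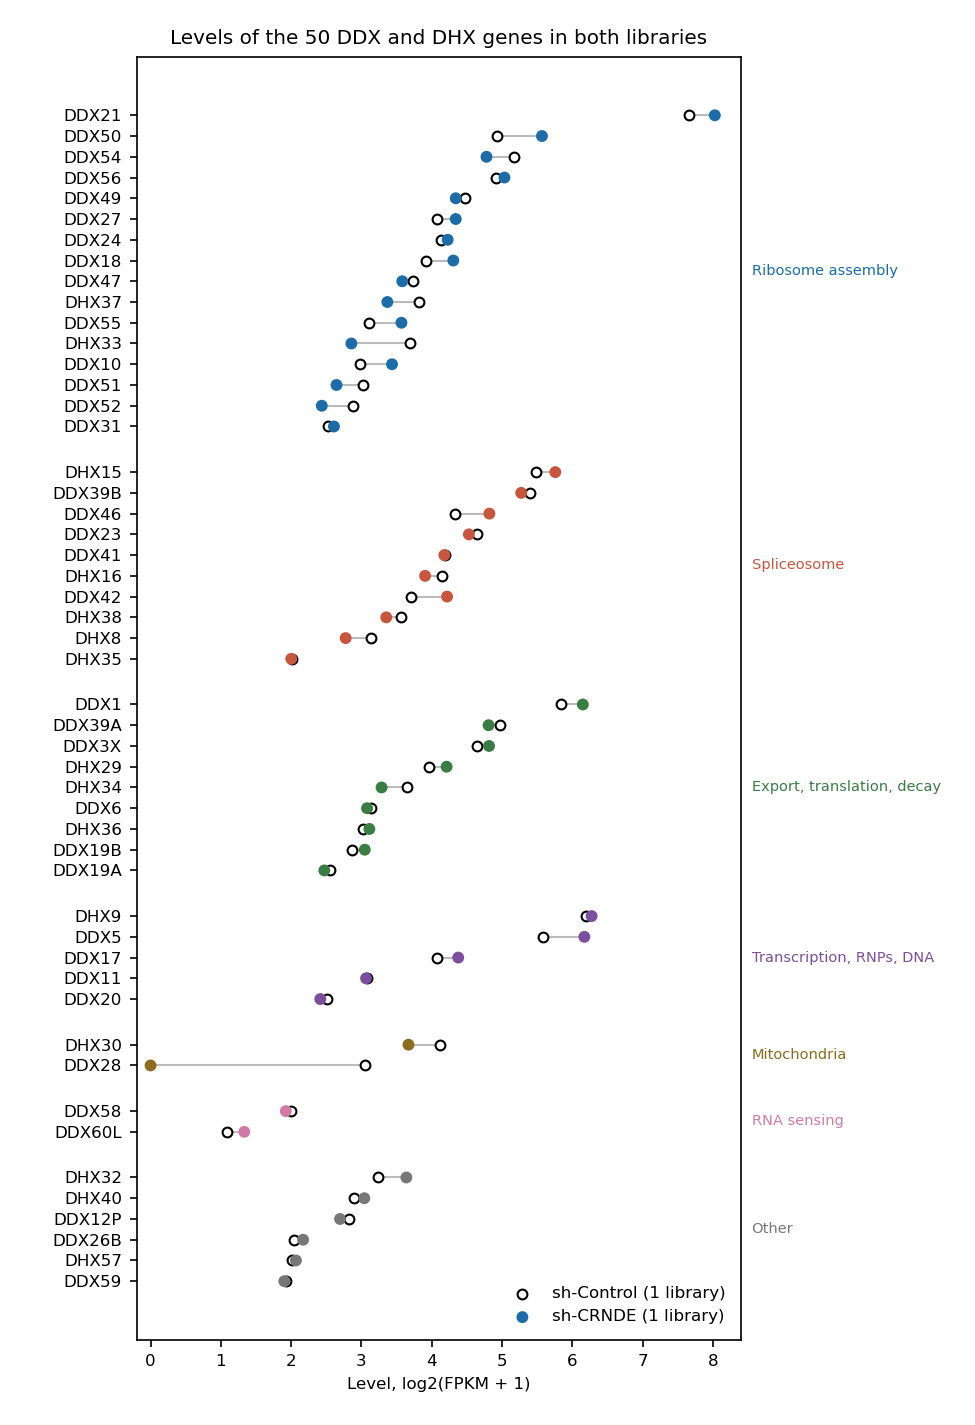
Level of each of the 50 DDX and DHX genes on the log2(FPKM + 1) scale (horizontal axis), with the open point for the sh-Control library and the filled point for the sh-CRNDE library, colored and grouped by role and ordered by mean level. DDX21 is far to the right of all others in both libraries, DDX28 is the only gene whose filled point lies at 0, and most pairs of points lie close together.

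The 16 genes of ribosome assembly were the largest group. Without adjustment for GC content, their changes spread more than those of any other role with at least 5 genes. Their roles lie mainly in the nucleolus, in the transcription, processing or folding of pre-ribosomal RNA. DDX50 rose and DHX33 fell, and 9 of the 16 changes lay above 0 and 7 below, with a median of 0.09. The middle of their changes was 0.75 wide on the log2 scale, compared with 0.42 for all 50 genes and 0.49 for all listed genes. These widths are of unadjusted changes. Within the 16 genes, change and GC content had a Spearman rho of -0.45, and the part of GC content in the spread was not tested. Past 1.5-fold were 12.5% of the group, against 17.2% of all genes.

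DDX50 (ENSG00000107625, chr10:68901286-68946847, plus strand) encodes a nucleolar helicase that is the nearest relative of DDX21. It was at 29.6 FPKM in the control library and 46.4 FPKM in the sh-CRNDE library, a change of 0.63, and 92.6% of all genes had a lower change. DDX21 (chr10:68956135-68985068, plus strand), which couples RNA polymerase activity to the processing of ribosomal RNA, begins 9287 bases beyond the end of DDX50 on the same strand. Its change of 0.36 was in the same direction but did not pass 1.5-fold. The ratio of DDX21 to DDX50 was 6.83 in sh-Control and 5.60 in sh-CRNDE, and the change of their summed FPKM was 0.40. DDX50, the member of the pair at the lower level, thus had the larger change on the log2 scale.

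Toward higher levels in sh-CRNDE, 4 more genes of this group had changes between 0.27 and 0.46, none past 1.5-fold. DDX55, a helicase of the large subunit, was at 7.65 FPKM in the control library and 10.9 FPKM in the sh-CRNDE library (change 0.46). DDX10, which helps to release small nucleolar RNAs, was at 6.91 and 9.82 FPKM (0.45). DDX18, which acts in large-subunit assembly, was at 14.1 and 18.8 FPKM (0.39). The lowest of these 4 changes was that of DDX27, a large-subunit factor, at 15.8 and 19.3 FPKM (0.27). DDX56, DDX24 and DDX31, all tied to the large subunit, had changes of 0.12, 0.10 and 0.08 at levels of 29.2, 16.5 and 4.78 FPKM in sh-Control.

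DHX33 (ENSG00000005100, chr17:5440917-5468982, minus strand), a DEAH-box helicase that takes part in transcription of ribosomal RNA genes, was at 11.9 FPKM in the control library and 6.24 FPKM in the sh-CRNDE library. Its change was -0.84, and 4.50% of all genes had a lower one. It shares 22 exonic bases, 0.397% of its transcript, with C1QBP on the same strand, which was at 69.7 FPKM in the control library and 49.7 FPKM in the sh-CRNDE library. Among genes of the group on the lower side without passing 1.5-fold, DHX37, which releases the U3 small nucleolar RNA from the early small subunit, was at 13.2 and 9.33 FPKM (change -0.45). DDX52, a small-subunit factor, was at 6.34 and 4.41 FPKM (-0.44). DDX54, a large-subunit factor, was at 35.2 and 26.5 FPKM (-0.40), and DDX51, also of the large subunit, was at 7.15 and 5.26 FPKM (-0.38). Helicases of both subunits were therefore found on the lower side. DDX47 and DDX49, counterparts of yeast small-subunit factors, had changes of -0.16 and -0.13.

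None of the 10 spliceosomal helicases passed 1.5-fold, against 17.2% of all genes. Their median change was -0.06, with 3 above 0 and 7 below. The 3 above 0 serve early recognition of the branch site or disassembly, a theme named here after their values were seen. DDX39B, which also serves branch-site recognition, was below 0 (change -0.13). DDX42, a factor of the U2 small nuclear ribonucleoprotein, was at 12.1 FPKM in the control library and 17.6 FPKM in the sh-CRNDE library (change 0.51), and DDX46, which readies U2 for the branch site, was at 19.0 and 27.3 FPKM (0.50). DHX15, which takes spent spliceosomes apart and also works in ribosome assembly, was the most abundant of the group at 43.8 and 53.1 FPKM (0.27). With adjustment for GC content the changes of DDX42, DDX46 and DHX15 were 0.47, 0.33 and 0.17. That of DDX41, which is outside this theme, was then 0.18, so the theme covers the genes above 0 only without adjustment.

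Next come 3 DEAH-box helicases of the catalytic steps, grouped here after their values were seen. DHX16, which activates the spliceosome for the first step, was at 16.7 FPKM in the control library and 13.99 FPKM in the sh-CRNDE library (change -0.24). DHX38, which remodels it between the steps, was at 10.8 and 9.22 FPKM (-0.21). DHX8, which releases the spliced mRNA, was at 7.75 and 5.85 FPKM (-0.35). All were below 0 and none passed 1.5-fold, and with adjustment for GC content the changes of DHX16 and DHX38 were -0.06 and -0.03, against -0.32 for DHX8. DDX23, which displaces U1 from the 5′ splice site, had a change of -0.11. DDX41, whose unadjusted change was closest to 0 of all 50 genes, was at 17.2 and 17.1 FPKM, and DHX35, found with it in the catalytic spliceosome, was at 3.03 and 3.004 FPKM.

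DDX39B, an ATPase that serves both branch-site recognition and mRNA export, was at 41.2 FPKM in the control library and 37.7 FPKM in the sh-CRNDE library, a change of -0.13. Every base of its canonical transcript (chr6:31530219-31542448, minus strand) is also exonic in the readthrough gene ATP6V1G2-DDX39B, which was listed at 0 in the control library and reached 12.8 FPKM under sh-CRNDE. The FPKM of both together were 41.2 in sh-Control and 50.5 in sh-CRNDE, a change of 0.29. The direction for DDX39B therefore depends on whether the readthrough gene is counted with it. The summed change rests on the readthrough gene being listed at 0 in sh-Control, and a 0 in these files can be a failed estimate. DDX39A, the paralogue of DDX39B, also serves mRNA export and has no such overlap. It was at 30.2 and 27.0 FPKM (-0.16).

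Exons of 8 of the 50 genes in all overlap those of another listed gene, and whether the authors counted by strand is not given in the sources used here. DDX47 shares 99.7% of its transcript with APOLD1 on the same strand, which was below 1 FPKM in both libraries. DDX55 shares 20.3% with EIF2B1 on the opposite strand, at 23.9 FPKM in the control library and 35.6 FPKM in the sh-CRNDE library. DHX32 shares 13.3% with BCCIP on the opposite strand, at 18.9 and 28.9 FPKM. For DDX55 and DHX32, the overlapping neighbor lay in the same direction as the helicase gene, and without strand its reads cannot be told apart from theirs in the shared part. For DDX27, DHX16 and DHX38 the shared part on the opposite strand was 7.90%, 2.47% and 0.532%.

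Among the 9 helicases of mRNA export, translation and decay none passed 1.5-fold, against 17.2% of all genes, and their median change was 0.10, with 5 above 0 and 4 below. DDX1, a partner of the tRNA ligase, led the group at 56.1 FPKM in the control library and 70.0 FPKM in the sh-CRNDE library (change 0.32). DHX29, which helps the ribosome scan structured leaders, was at 14.5 and 17.5 FPKM (0.26). DDX3X, which promotes translation of structured mRNAs, was at 24.0 and 27.2 FPKM (0.17). These are all factors of translation or tRNA maturation, grouped here after their values were seen, and none of them differed by as much as the threshold. The export helicase DDX19B had a change of 0.18, above that of DDX3X, and DHX36 was above 0 as well. With adjustment for GC content the changes of DDX1, DHX29 and DDX3X were 0.21, 0.09 and 0.01, against 0.18 for DDX19B and -0.07 for DHX36.

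Factors of mRNA decay and remodeling lay on both sides of 0. DHX34, which acts in nonsense-mediated decay, was at 11.5 FPKM in the control library and 8.76 FPKM in the sh-CRNDE library (change -0.35). DDX6, which links deadenylation to decapping and translational repression, was at 7.81 and 7.45 FPKM (-0.06). DHX36, which unfolds G-quadruplexes, was at 7.09 and 7.65 FPKM (0.10). The export pair DDX19A and DDX19B lay in opposite directions, with 4.86 and 4.55 FPKM for DDX19A (-0.08) and 6.29 and 7.27 FPKM for DDX19B (0.18). They stand 11555 bases apart on chromosome 16 and the windows of 30 bases around their motif II are the same letter for letter.
DDX19A (chr16:70366192-70366221, plus strand, exon 8): tttgttctgGATGAGGCTGATgtcatgata
DDX19B (chr16:70329399-70329428, plus strand, exon 8): tttgttctgGATGAGGCTGATgtcatgata
Reads of such near-identical copies can be split between them in counting, so the direction of each is uncertain, and their summed FPKM had a change of 0.08. The same holds for DDX11, a DNA helicase that supports sister chromatid cohesion, and its pseudogene copy DDX12P, with changes of -0.02 and -0.13 and a change of -0.07 in their sum.

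DDX5 and DDX17, paralogues that act as transcriptional coregulators and in microRNA processing, were both higher in sh-CRNDE without passing 1.5-fold. DDX5 was at 47.2 FPKM in the control library and 71.1 FPKM in the sh-CRNDE library. Its change of 0.5811 was the nearest to the threshold of 0.5850 from inside, and the ratio of the FPKM themselves was 1.51. DDX17 was at 15.9 and 19.8 FPKM (0.30). The ratio of DDX5 to DDX17 was 2.98 in sh-Control and 3.59 in sh-CRNDE, and their summed FPKM had a change of 0.52. DHX9, a helicase that resolves RNA and DNA structures in transcription, was at 72.1 and 76.4 FPKM (0.08), and DDX20, a subunit of the SMN complex, at 4.69 and 4.33 FPKM (-0.09). In this group of 5 genes, which includes DDX11, 3 changes were above 0, 2 were below and none passed, against 17.2% of all genes.

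Of the 2 helicases of the mitochondrial ribosome, DHX30 did not pass 1.5-fold and DDX28 was listed at 0 in 1 library. DHX30, which is found in mitochondrial RNA granules, was at 16.4 FPKM in the control library and 11.7 FPKM in the sh-CRNDE library (change -0.45), and the ratio of DHX9 to DHX30, which shares its type of double-stranded RNA-binding domain, was 4.40 in sh-Control and 6.52 in sh-CRNDE. DDX28 (ENSG00000182810, chr16:68020916-68023232, minus strand), which acts in assembly of the large mitochondrial subunit, was at 7.32 FPKM in sh-Control and was listed at 0 in sh-CRNDE, so no fold is given. It is the 1 gene of the 50 whose canonical transcript has a single exon. Of 68 single-exon protein-coding genes that reached 5 FPKM in either library, 19 (27.9%) were listed at 0 in the other, against 3 of 5242 (0.0572%) of those with more exons. In sh-Control 182 genes were listed at 0 and in sh-CRNDE 139, and the abundant mitochondrial ribosomal RNA gene MT-RNR2 was among those at 0 in sh-Control. A value of 0 in these files can thus be a failed estimate, and the value of DDX28 is given as listed at 0 only. The paper's discussion lists DDX28 among NOTCH-related genes that it found regulated after CRNDE knockdown. That listing cites the study's own sequencing of NB4 cells after knockdown, from which the values here also come, so it is no separate measurement.

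Helicases that sense viral RNA were low in both libraries. DDX58, the RIG-I receptor, was at 2.997 FPKM in the control library and 2.80 FPKM in the sh-CRNDE library (change -0.07), and DDX60L was the lowest of all 50 genes in sh-Control, at 1.12 FPKM, and at 1.52 FPKM in sh-CRNDE (0.25). DDX60 and DHX58, which belong to the same pathway, were not among the listed genes, and neither were the germline helicases DDX4, DDX25, DDX43 and DDX53. Of 25 genes of the interferon response and RNA sensing, 14 were listed, with a median change of 0.03. In this list MAVS, the mitochondrial adaptor below RIG-I, rose from 1.96 to 14.7 FPKM (2.41), and TRIM25, a ubiquitin ligase of the same pathway, fell from 13.4 to 2.64 FPKM (-1.99). The other listed genes of this list did not pass 1.5-fold, so that 2 of 14 (14.3%) were past it, against 17.2% of all genes.

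The 6 genes left, of other or uncertain roles, had a median change of 0.09 and none passed 1.5-fold. DHX32 was at 8.41 FPKM in the control library and 11.5 FPKM in the sh-CRNDE library (change 0.41). DHX40 had a change of 0.15, DDX26B of 0.12, DHX57 of 0.06 and DDX59 of -0.03, at levels between 2.74 and 7.23 FPKM.

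Changes followed the base composition of the transcripts. Over the 49 genes above 0 in both libraries, the change and the GC content of the canonical transcript had a Spearman rho of -0.57 and a Pearson r of -0.57, and over the 8733 genes with at least 1 FPKM in both and a GC content the values were -0.44 and -0.33. All these points come from the same 2 libraries, and genes are not independent replicates. Of the 25 genes with a GC content above the median of 47.1%, 6 had a change above 0 and 19 below, with a median of -0.13. Of the 25 at or below it, 19 were above 0 and 6 below, with a median of 0.25. Transcripts rich in G and C, such as those of DHX37 (61.3%), DDX54 (60.6%) and DDX51 (58.6%), were on the lower side, and DDX21 (39.99%), DDX18 (39.5%) and DDX46 (38.7%) on the higher. When the median change of genes of like GC content was subtracted, the medians of the GC-rich and the AT-rich 25 genes were -0.02 and 0.08, and the rho was -0.16.

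The adjustment for GC content changed which genes passed 1.5-fold. DDX50 had an adjusted change of 0.53 and no longer passed, whereas DHX33, whose GC content was 48.7%, stayed at -0.84. DDX52, at 39.8% GC one of the AT-rich transcripts that lay on the lower side, had an adjusted change of -0.61 and then passed. After adjustment 3 of the 50 genes passed, DHX33, DDX28 and DDX52, all lower in sh-CRNDE, against 14.7% of all genes in either direction. Length and number of exons had little relation to the change over the 49 genes, with rho of -0.09 and -0.02, and mean level had a rho of 0.26. The part of library preparation or sequencing in the relation with GC content was not tested.

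Grouped by motif II instead of by name, the 25 DEAD proteins had a median change of 0.10, with 14 above 0 and 11 below. The 9 DEAH proteins, DDX11 among them, had a median of -0.21, with 2 above 0, DHX15 and DHX40, and 7 below. With adjustment for GC content the median of the DEAH proteins was -0.03 and that of the DEAD proteins 0.11, and the 2 DEAH proteins above 0 were then DHX15 and DDX11. The 13 variants had a median of 0.06. By symbol, the DDX genes had a median of 0.08, with 18 above 0 and 17 below, and the DHX genes one of -0.01, with 7 above and 8 below. Past 1.5-fold were 5.71% of the DDX and 6.67% of the DHX genes, both under the 17.2% of all genes. The summed level of the 35 DDX genes was 750.3 FPKM in the control library and 869.9 FPKM in the sh-CRNDE library, and that of the 15 DHX genes was 246.5 and 244.7 FPKM.

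Promoters were searched for 3 short motifs because many of these genes are housekeeping genes that share promoter elements. RefSeq promoters of 250 bases before to 50 after the start (GRCh38.p14) were found for 45 of the 50 genes, and both strands were read. The ETS motif CCGGAAGT was in 11 of the 45 (24.4%) and in 4.14% of all 35116 promoters of this length. The E-box CACGTG was in 8 (17.8%, against 7.26%) and the CCAAT box, searched as CCAAT, in 20 (44.4%, against 34.6%). The 35116 promoters were not limited to the 11619 listed genes. The share among promoters of listed genes is not given here, so an excess particular to the helicase genes cannot be read from these values. The windows around the ETS motif of the neighbors DDX50 and DDX21 are shown, since these genes lie side by side and both had higher values in sh-CRNDE, with the motif in capitals.
DDX50 (chr10:68901256-68901285, plus strand, motif at -48 from the RefSeq start): cggtgcgtgtcCCGGAAGTgacgcatggcc
DDX21 (chr10:68956099-68956128, plus strand, motif at -60 from the RefSeq start): tcctgcttcccCCGGAAGTgccttgctacg
Genes with the ETS motif had a median change of -0.13 and those without it one of 0.08, so the presence of the motif did not go with the direction seen in this pair. A match is a string of letters and was not tested for binding.

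RNA helicases with other names gave a like picture. Of 20 such genes 19 were listed, their median change was -0.02, and none passed 1.5-fold, against 17.2% of all genes. EIF4A1, the helicase of the cap-binding complex and founder of the DEAD-box family, had the highest mean level, at 110.0 FPKM in the control library and 120.6 FPKM in the sh-CRNDE library (change 0.13). DDX21 was thus above EIF4A1 in both libraries, on a scale that is per length of transcript.

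Several partner proteins of helicases passed 1.5-fold. The list holds G-patch proteins, many of which activate DEAH-box enzymes, and proteins that pair with DEAD-box enzymes through MIF4G domains or other contacts. All 34 were listed, their median change was 0.08, and 5 (14.7%) were past 1.5-fold, against 17.2% of all genes. EIF4H, which stimulates EIF4A, rose from 34.8 to 141.1 FPKM (change 1.99). The G-patch proteins AGGF1, PINX1 and GPATCH4 rose as well, from 4.55 to 9.24 FPKM (0.88), from 2.18 to 4.44 FPKM (0.78) and from 3.53 to 6.40 FPKM (0.71). GPKOW, the G-patch partner of DHX16, fell from 8.21 to 4.71 FPKM (-0.69), and with adjustment for GC content its change of -0.51 did not pass. EIF4H, AGGF1, PINX1 and GPATCH4 still passed with adjustment. EIF4B, of the same list, was at 102.1 FPKM in the control library and 68.6 FPKM in the sh-CRNDE library. Its change of -0.57 did not pass, but with adjustment it was -0.63 and passed as lower. PINX1 and GPATCH4 are both partners of DHX15, whose own change was 0.27. EIF4G2, the partner with the highest mean level, was at 134.3 and 139.2 FPKM and did not pass. The share of partners past 1.5-fold was higher than the 6% of the DDX and DHX genes and close to that of all genes, and the difference between the lists was not tested.

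**Figure D2:**
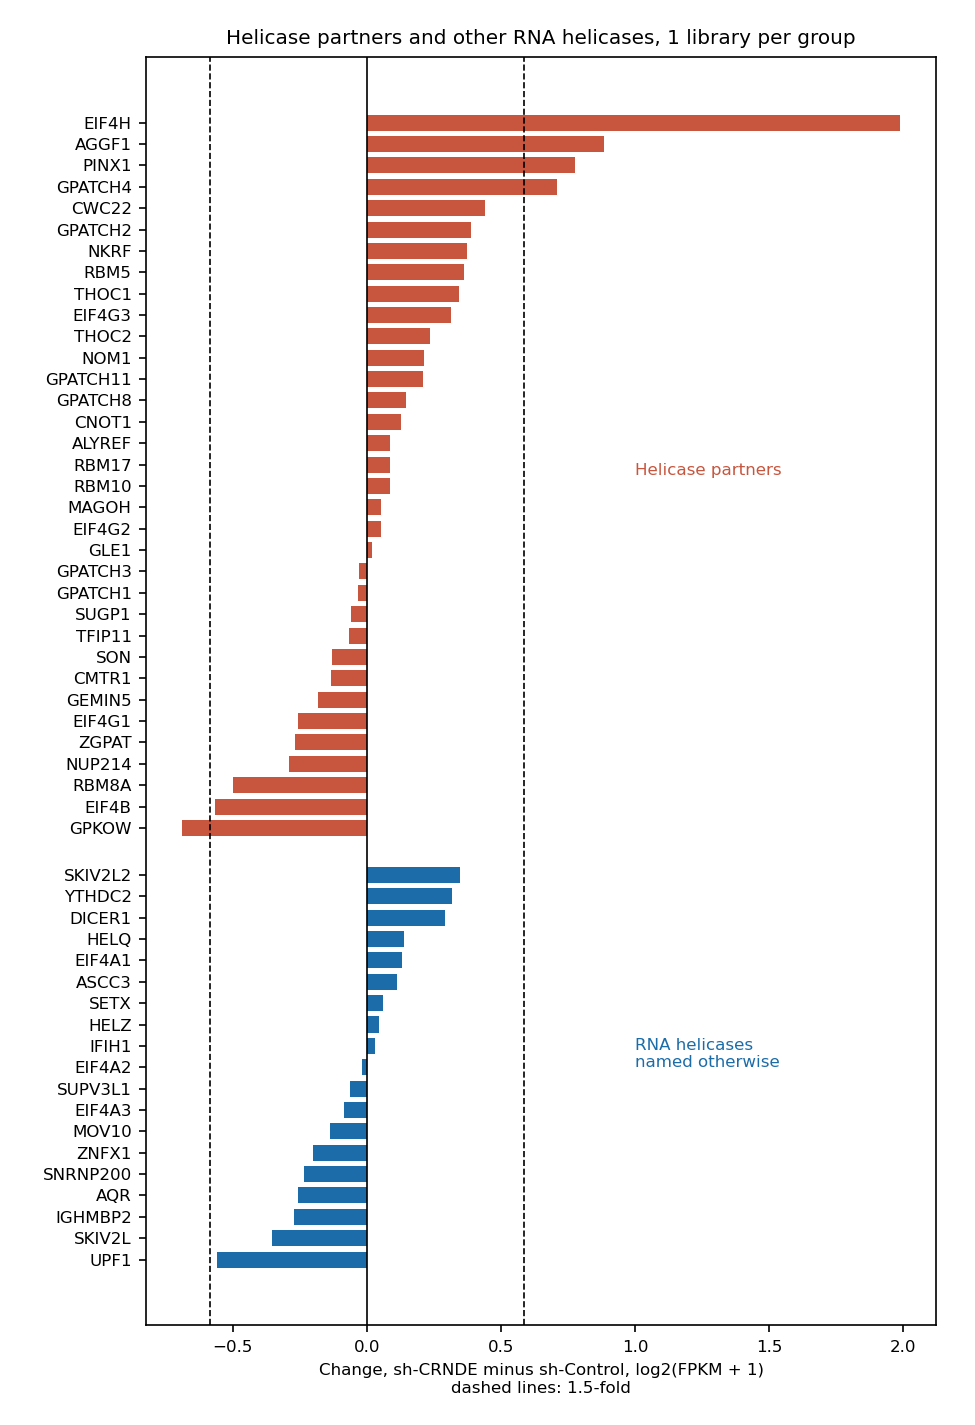
Change of 34 partner proteins of helicases (upper block) and of 19 RNA helicases without a DDX or DHX symbol (lower block), sh-CRNDE minus sh-Control on the log2(FPKM + 1) scale (horizontal axis), with 1 bar per gene and dashed lines at 1.5-fold. In the upper block EIF4H, AGGF1, PINX1 and GPATCH4 pass the right line and GPKOW passes the left one, while no bar of the lower block passes either line.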

How the data were processed

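NB4 cells were profiled in 1 sh-CRNDE and 1 sh-Control library (TruSeq RNA kit, Illumina MiSeq). The authors deposited FPKM per gene. The submitters' processing notes list fastp 0.20.0, HISAT2 2.0.4, StringTie 1.2.3 and build GRCh38, and the annotation release was not given in the sources used here. Every listed gene was above 0.5 FPKM in at least 1 library, and all were kept. Tables were joined by Ensembl identifier. The change was the difference of log2(FPKM + 1), with 1.5-fold as threshold, a calculation tested on simulated data. No test was run, since each group had 1 library. Coordinates, exons and GC content came from GENCODE 44 (GRCh38, the build of the files), in which 11508 of 11619 identifiers and all 50 helicase genes were found. For adjustment by GC content, the median change of genes at 1 FPKM or more in both libraries was subtracted in each of 20 bins. Motif II was sought as DEAD or DEAH codons, and otherwise as a variant 40 to 190 codons beyond motif I. All 50 genes could be named. Values were given by rule for those past 1.5-fold, at 0, near the threshold, highest or in paralogue pairs, and from other lists for those past 1.5-fold and the highest. A value that this rule would name is not reported here. DDX and DHX genes, role lists and motifs were chosen with earlier results of these data known. Python 3.11.15, numpy 2.4.6, pandas 2.3.3 and matplotlib 3.10.9 were used.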

Additional observations from a re-analysis of the deposited data

How the results depend on the processing

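The count of 3 DDX and DHX genes past 1.5-fold (1 higher, 2 lower) was 1 at 2-fold, which left DDX28. It was 4 (2 higher, 2 lower) with a pseudocount of 0.1 or 0.01 or with centring, each time by DDX5 at 0.59. With adjustment for GC content it was 3 (0 higher, 3 lower), without DDX50 and with DDX52. Quantile normalization and rescaling left it at 3 (1 higher, 2 lower), and so did leaving out DDX12P and DDX26B. It was 2 (1 higher, 1 lower) without genes listed at 0 or below 1 FPKM. Without a pseudocount, an alternative chosen after seeing the data, it was 3 of 49 (2 higher, 1 lower). The median change lay between 0.02 and 0.08. Under some setting 11 genes changed sign, none with a main change beyond 0.16 in size, and 1 of them was DDX39B, at 0.29 when summed with its readthrough gene. That sum rests on the readthrough gene being listed at 0 in sh-Control, which can be a failed estimate. Over all genes, the count of 2000 past 1.5-fold became 3301 and 3481 with the pseudocounts of 0.1 and 0.01, 3228 with rescaling, 3181 without a pseudocount, 1239 over genes at 1 FPKM or more in each library, and 774 at 2-fold. No paired analysis was possible because each group had 1 library. The depth is unknown, so differences of low genes such as DDX60L cannot be weighed against counting error.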
